A study of Homo sapiens with 24 samples.

Results

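The 41 genes described here are 23 genes of autophagy, 3 transcription factors of the MiT/TFE family and 15 genes of the lysosome, measured in LNCaP cells. They were chosen by gene symbol from general pathway knowledge, with earlier results of these data known. Each was read from the brightest of its probes that were detected (p under 0.01) on 3 or more of the 24 arrays. Of the 41 genes, 37 passed this filter and were tested among 10345 genes in all, namely 22 autophagy genes, 1 transcription factor (TFE3) and 14 lysosome genes. The 4 others were ATG13, TFEB, MITF and HEXA, whose best probes were detected on 1, 0, 2 and 0 arrays.

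LNCaP is an androgen-sensitive line from a lymph node metastasis of human prostate cancer. Its RNA was hybridised to 24 one-colour Illumina bead arrays, 3 in each of 8 groups. Cells were plated onto ST045849, a small-molecule inhibitor of O-GlcNAc transferase (OGT), or onto its vehicle, or onto siOGT, an siRNA that targets OGT, or its scrambled control siRNA, each for 12 or 24 hours. The groups share 1 cell line and 1 kind of culture medium and each treatment was compared with its own control at the same labelled time. The sources used here do not give the inhibitor's dose. OGT attaches single N-acetylglucosamine residues to serine and threonine of nuclear and cytosolic proteins.

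In autophagy a membrane grows around cytoplasmic cargo, closes into an autophagosome and fuses with a lysosome, where acid hydrolases digest what it holds. The ULK kinases and the BECN1 complex start the membrane, WIPI and ATG2 proteins supply it, and the ATG7, ATG3, ATG5, ATG12 and ATG16L1 machinery attaches the ubiquitin-like proteins of the ATG8 family (MAP1LC3 and GABARAP) to it, which receptors such as SQSTM1 bind. TFEB, TFE3 and MITF are transcription factors that bind CACGTG-type elements in promoters of lysosome and autophagy genes, and prostate cancer cells use the pathway to recycle nutrients under metabolic stress.

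Arrays were compared as log2 intensities after background correction and quantile normalization, in a single limma fit across all 10345 genes, and a gene is said to have risen or fallen when its Benjamini-Hochberg adjusted p was under 0.05. Between 29.6% and 34.3% of probes were detected per array, and with 3 arrays a group the precision is limited. KLK3, KLK2, FOLH1, HOXB13, KRT8 and KRT18, markers of luminal prostate cells, were detected on all 24 arrays, and KRT5, KRT14, COL1A1, COL1A2, DCN, PTPRC, CD14 and CD3E, markers of basal, stromal and blood cells, on 0. The siRNA lowered the transcript of its target. OGT stood at 7.32, 7.55 and 6.71 with siOGT at 12 hours against 8.76, 8.95 and 8.99 with the scrambled siRNA (fold 0.307, limma adjusted p = 0.0040). At 24 hours it stood at 6.76, 7.82 and 6.60 against 8.96, 8.61 and 9.10 (fold 0.282, limma adjusted p = 0.000679). OGT protein and activity were not measured by these arrays. With ST045849 the OGT transcript was higher than with vehicle, without overlap, by 0.475 at 12 hours and 0.505 at 24 hours on the log2 scale. Neither difference was called (limma adjusted p = 0.207 and 0.122). On the first principal component the vehicle arrays fell into 2 sets that crossed the labelled times. Replicate 3 of 12 hours and replicates 1 and 3 of 24 hours made up the first set, the other 3 the second, and the same division was carried to every treatment. What the sets are is not given. Whether replicate 3 of 12 hours and replicate 2 of 24 hours carry each other's time label was not tested. Treated and control groups of a time hold the same number of arrays of each set, so values within each set are given beside the main results. The same component separates the inhibitor: ST045849 arrays lay at 14.08 to 29.16 on it and all other arrays at -12.85 to -1.27. The first set thus holds the vehicle arrays farthest from the treated ones. A larger difference in that set is partly built in, and the values within sets are no independent support.

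With ST045849, members of the ATG8 family, the main cargo receptor and a few machinery genes rose. At 12 hours 6 of the 37 genes rose and 0 fell, which is 16.2%, where 11% of all 10345 genes were called, 5.73% upward and 5.28% downward. At 24 hours 7 rose and 0 fell, which is 18.9%, where 24.3% of all genes were called, 13.6% upward and 10.7% downward. The share called in either direction thus stood above that of all genes at 12 hours and below it at 24 hours. The share that rose stood above the upward share of all genes at both times, 16.2% against 5.73% and 18.9% against 13.6%. These differences in share rest on few genes, from a list chosen with earlier results of these data known, and were not tested. The 12 hour count was 0 without vehicle replicate 3, 0 without ST045849 replicate 3 and 2 without ST045849 replicate 2. With median scaling of the arrays in place of quantile normalization 0 genes were called at 12 hours, and 4 rose and 1 fell at 24 hours. In bulk RNA a change in the level per cell and a change in the share of cells that hold the transcript cannot be told apart. By list, the genes that rose were 4 of 22 autophagy and 2 of 14 lysosome genes at 12 hours, and 6 of 22 and 1 of 14 at 24 hours. The median log2 change of the 37 genes was 0.10 at 12 hours and 0.18 at 24 hours, against 0.00 and 0.03 over all genes. Among the autophagy genes it was 0.11 and 0.20, and among the lysosome genes 0.10 and 0.11. With median scaling the 24 hour medians were -0.003 over the 37 genes, 0.01 over the autophagy genes and -0.10 over the lysosome genes, against -0.14 over all genes.

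**Figure D1:**
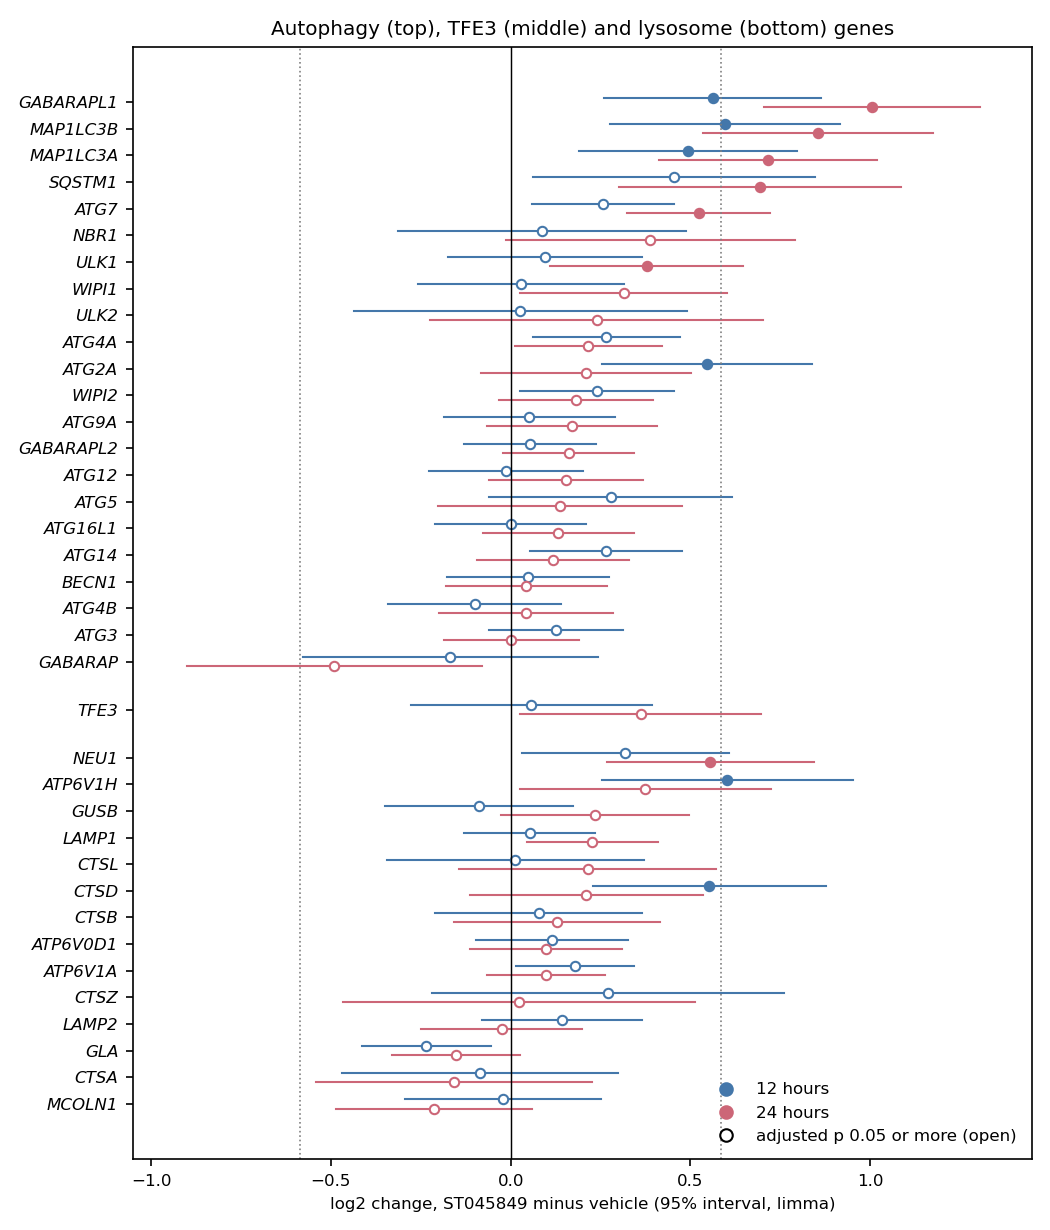
Log2 change of each of the 37 tested genes with ST045849 against vehicle at 12 hours (blue) and 24 hours (red), with 95% intervals from limma, autophagy genes on top, TFE3 in the middle and lysosome genes below. Filled points had an adjusted p under 0.05 (6 at 12 hours and 7 at 24 hours), and the dotted lines mark a 1.5-fold change.

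The ATG8 family did not move as a block. GABARAPL1, MAP1LC3B and MAP1LC3A, 3 of its 5 members, rose at both times, while GABARAPL2 and GABARAP did not pass the test at either. Of the promoters, those of GABARAPL1 and MAP1LC3B are shown because these genes had the smallest p of the autophagy genes at 24 hours, together with that of ATG7, the enzyme that activates ATG8 proteins, which had the next smallest. Each is the run of 250 bases before the RefSeq start site of build GRCh38.p14, read 5′ to 3′ on the gene's strand. Capitals mark TGACNNNGC, the core of the antioxidant response element, where N is any base. GABARAPL1 is at chr12:10212627-10212876 (plus strand), MAP1LC3B at chr16:87392086-87392335 (plus strand) and ATG7 at chr3:11272147-11272396 (plus strand).
GABARAPL1: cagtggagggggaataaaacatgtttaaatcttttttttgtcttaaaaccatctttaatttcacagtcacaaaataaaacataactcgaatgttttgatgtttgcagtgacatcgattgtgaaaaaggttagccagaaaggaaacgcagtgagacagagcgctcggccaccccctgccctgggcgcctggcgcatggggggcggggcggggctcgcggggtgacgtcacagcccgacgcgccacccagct
MAP1LC3B: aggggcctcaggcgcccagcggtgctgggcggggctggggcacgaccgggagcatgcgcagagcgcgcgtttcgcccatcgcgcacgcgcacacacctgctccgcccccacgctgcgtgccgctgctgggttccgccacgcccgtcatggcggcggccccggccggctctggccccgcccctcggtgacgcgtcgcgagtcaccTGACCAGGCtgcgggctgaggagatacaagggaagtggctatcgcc
ATG7: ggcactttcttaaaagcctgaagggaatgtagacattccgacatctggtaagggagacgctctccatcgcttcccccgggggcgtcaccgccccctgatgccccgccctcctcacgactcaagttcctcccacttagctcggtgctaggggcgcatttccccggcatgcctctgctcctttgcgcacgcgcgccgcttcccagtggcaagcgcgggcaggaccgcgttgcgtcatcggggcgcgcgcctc
Of these 3 windows, that of MAP1LC3B holds TGACNNNGC, 46 to 38 bases before the start, and none holds CACGTG or TGATGNAA (a core of the element for ATF4 with C/EBP partners).

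GABARAPL1, whose protein acts in the later steps of autophagosome formation, had the largest change of the 37 genes at 24 hours. At 12 hours its log2 intensity was 8.84, 9.14 and 8.97 with ST045849 and 8.40, 8.53 and 8.33 with vehicle. At 24 hours it was 9.22, 9.23 and 9.57 against 8.22, 8.37 and 8.40. The groups did not overlap at either time, and the treated arrays were higher in 6 of 6 same-numbered comparisons. The log2 difference was 0.56 ± 0.15 (SE) at 12 hours (limma adjusted p = 0.0163) and 1.01 ± 0.15 at 24 hours (a 2.01-fold rise, limma adjusted p = 6.12e-05). Within the array sets it was 0.93 in the first and 0.63 in the second.

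MAP1LC3B encodes LC3B, the ATG8 protein most used to mark autophagosomes. Its log2 intensity was 8.07, 8.36 and 8.63 with ST045849 at 12 hours against 7.69, 7.90 and 7.67 with vehicle. At 24 hours it was 8.84, 8.45 and 8.68 against 7.76, 7.90 and 7.74, again without overlap. The log2 differences were 0.60 ± 0.15 (limma adjusted p = 0.0162) and 0.86 ± 0.15, or 1.81-fold (limma adjusted p = 0.000497). The difference was 0.99 within the first array set and 0.46 within the second. Whether the probe also reads the near-identical paralog MAP1LC3B2 was not tested.

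MAP1LC3A, which encodes the related LC3A, stood at 8.69, 8.61 and 8.79 with ST045849 at 12 hours against 8.38, 8.33 and 7.90 with vehicle, and at 8.99, 8.58 and 8.80 against 8.03, 8.35 and 7.84 at 24 hours. Treated and vehicle arrays did not overlap at either time, although the vehicle arrays of the second set (8.33 to 8.38) stood closer to the treated ones than those of the first (7.84 to 8.03). The log2 differences were 0.49 ± 0.15 (limma adjusted p = 0.0332) and 0.72 ± 0.15, or 1.64-fold (limma adjusted p = 0.00141). Within the sets the difference was 0.94 in the first and 0.27 in the second, and whether the sets differ in it was not tested.

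The other ATG8 genes are GABARAPL2 and GABARAP. GABARAPL2 stood at 11.57, 11.69 and 11.57 with ST045849 at 12 hours against 11.55, 11.56 and 11.56, and at 11.62, 11.69 and 11.76 against 11.45, 11.65 and 11.48 at 24 hours. Its difference at 24 hours was 0.16 on the log2 scale, with a 95% interval of -0.02 to 0.34 that lies inside a 1.5-fold change. GABARAP stood at 7.55, 7.40 and 6.67 against 7.40, 7.35 and 7.38 at 12 hours, and at 6.73, 7.48 and 7.19 against 7.59, 7.68 and 7.60 at 24 hours. At 24 hours its treated arrays were all below the vehicle arrays, with a difference of -0.49 (95% interval -0.90 to -0.08, limma adjusted p = 0.0752) that did not pass the test. This call turned on the processing: without background correction it was -0.31 (limma adjusted p = 0.0470), with median scaling -0.68 (adjusted p = 0.0228), and without ST045849 replicate 2 of 24 hours -0.66 (adjusted p = 0.0278). Within the array sets the GABARAP difference was -0.66 in the first and 0.00 in the second.

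**Figure D2:**
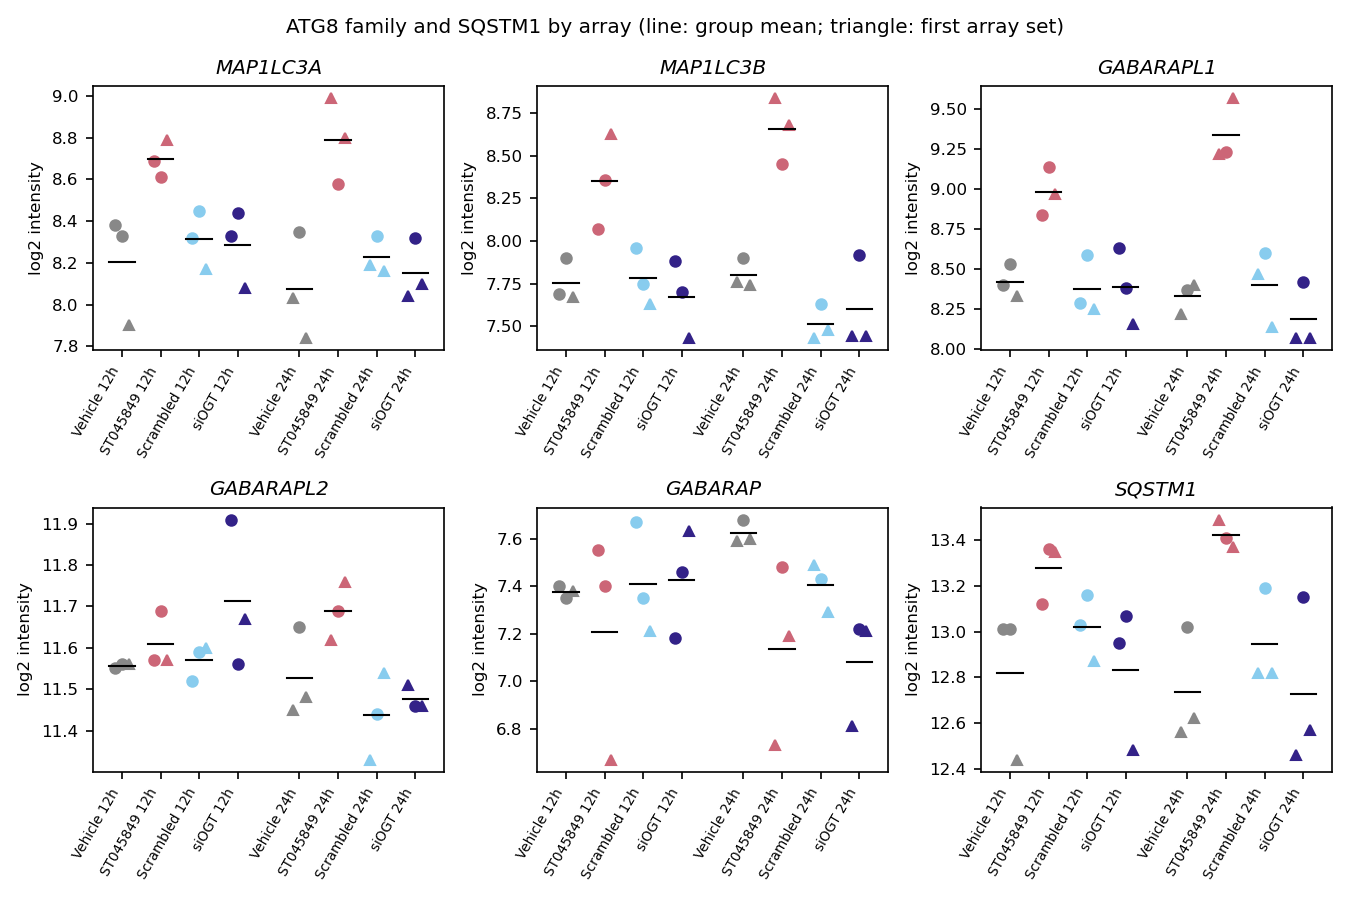
Normalized log2 intensity of the 5 ATG8 genes and SQSTM1 on each of the 24 arrays, by group, with a line at the group mean and a triangle for arrays of the first set. MAP1LC3A, MAP1LC3B and GABARAPL1 with ST045849 (red) lie above both controls at both times, and GABARAP does not.

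SQSTM1 encodes p62, the receptor that links ubiquitinated cargo to ATG8 proteins and is itself degraded by autophagy. At 12 hours it stood at 13.12, 13.36 and 13.35 with ST045849 against 13.01, 13.01 and 12.44 with vehicle, a log2 difference of 0.46 ± 0.19 that did not pass the test (limma adjusted p = 0.13). At 24 hours it stood at 13.49, 13.41 and 13.37 against 12.56, 13.02 and 12.62, and rose by 0.69 ± 0.19, or 1.62-fold (limma adjusted p = 0.0106). Groups did not overlap at either time, and the treated arrays were high in both sets. The vehicle arrays were not alike: they stood at 12.44 to 12.62 in the first set and 13.01 to 13.02 in the second, so that the difference was 0.86 in the first and 0.29 in the second. Without vehicle replicate 1 of 24 hours it was 0.61 (limma adjusted p = 0.0547). NBR1, a receptor of the same kind, was detected on 13 arrays and was 0.39 higher at 24 hours (95% interval -0.01 to 0.79, limma adjusted p = 0.151).

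Among the machinery genes, ATG7 and ULK1 rose at 24 hours and ATG2A at 12 hours. ATG7 stood at 8.03, 8.16 and 8.35 with ST045849 against 7.90, 7.90 and 7.96 with vehicle at 12 hours, and at 8.53, 8.65 and 8.64 against 8.01, 8.25 and 7.99 at 24 hours. No treated array overlapped its controls. The rise at 24 hours was 0.52 ± 0.10 on the log2 scale, or 1.44-fold (limma adjusted p = 0.00056), after 0.26 ± 0.10 at 12 hours (limma adjusted p = 0.0873). It was 0.52 within the first set and 0.26 within the second. With median scaling in place of quantile normalization the 24 hour value was 0.31 (limma adjusted p = 0.127).

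ULK1 encodes the kinase that starts autophagy downstream of mTORC1 and AMPK. It stood at 9.74, 9.90 and 9.86 against 9.86, 9.87 and 9.48 at 12 hours and at 9.94, 10.09 and 9.91 against 9.49, 9.79 and 9.53 at 24 hours, overlapping at 12 hours and not at 24 hours. The rise at 24 hours was 0.38 ± 0.13, or 1.30-fold (limma adjusted p = 0.0374), and its second probe gave 0.40 (limma adjusted p = 0.0266 over all probes). The call was kept in 1 of 6 fits that left out an array of the comparison, with values of 0.32 to 0.41 in the others, and the difference was 0.40 within the first set and 0.07 within the second.

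ATG2A encodes a lipid transfer protein that feeds the growing membrane. It stood at 7.56, 7.54 and 7.52 against 7.21, 6.95 and 6.82 at 12 hours, without overlap, and at 7.31, 7.34 and 7.16 against 7.27, 7.08 and 6.82 at 24 hours, with overlap. Its rise at 12 hours was 0.55 ± 0.14, or 1.46-fold (limma adjusted p = 0.0159), and its difference at 24 hours was 0.21 (95% interval -0.08 to 0.50). The difference was alike within the sets, at 0.36 and 0.40. The vehicle arrays of 12 hours also lay below the scrambled ones, by 0.31 without overlap, which was not called. The 12 hour means were 6.99 with vehicle, 7.30 with scrambled siRNA, 7.40 with siOGT and 7.54 with ST045849. At 24 hours ST045849 and scrambled siRNA both had a mean of 7.27.

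The 13 other autophagy genes tested did not pass the test at either time with ST045849. They were NBR1, the kinase gene ULK2, BECN1 and ATG14 of the lipid kinase complex, WIPI1 and WIPI2, which bind the lipid it makes, ATG9A, whose vesicles seed the membrane, the proteases ATG4A and ATG4B that trim ATG8 proteins, and ATG3, ATG5, ATG12 and ATG16L1 of the conjugation machinery. Their log2 differences ranged from -0.10 (ATG4B) to 0.28 (ATG5) at 12 hours and from 0.00 (ATG3) to 0.39 (NBR1) at 24 hours. ATG4A and ATG14 were higher with ST045849 in 6 of 6 same-numbered comparisons, by 0.27 each at 12 hours (limma adjusted p = 0.0883 and 0.0977). BECN1 was 0.05 and 0.04 higher, and its 95% intervals, both -0.18 to 0.27, lie inside a 1.5-fold change. Over all 37 genes, 27 of the 31 not called at 12 hours and 24 of the 30 not called at 24 hours had such an interval.

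TFE3 was the transcription factor tested. It stood at 6.37, 6.42 and 6.46 with ST045849 against 6.39, 6.34 and 6.35 with vehicle at 12 hours, and at 6.53, 6.44 and 6.46 against 5.78, 6.45 and 6.12 at 24 hours. The groups overlapped at both times, and the 24 hour difference of 0.36 (95% interval 0.03 to 0.70, limma adjusted p = 0.108) did not pass the test.

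Of the lysosome genes, CTSD and ATP6V1H rose at 12 hours and NEU1 at 24 hours. The NEU1 and CTSD promoters are shown as those of hydrolase genes that rose, and that of LAMP1, the main glycoprotein of the lysosomal membrane, because it holds CACGTG 5 times. These 3 were chosen after their values were seen. Capitals mark CACGTG and TGACNNNGC on either strand, and in LAMP1 the first run of capitals is a reverse-strand TGACNNNGC that overlaps the first CACGTG. NEU1 is at chr6:31862822-31863071 (minus strand), CTSD at chr11:1763928-1764177 (minus strand) and LAMP1 at chr13:113296989-113297238 (plus strand), each again the 250 bases before the start in RefSeq on GRCh38.p14.
NEU1: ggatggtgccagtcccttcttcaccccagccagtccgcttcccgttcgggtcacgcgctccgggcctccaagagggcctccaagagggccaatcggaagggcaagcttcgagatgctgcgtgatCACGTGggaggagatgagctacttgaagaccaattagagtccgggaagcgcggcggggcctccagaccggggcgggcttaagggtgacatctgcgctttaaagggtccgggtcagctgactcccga
CTSD: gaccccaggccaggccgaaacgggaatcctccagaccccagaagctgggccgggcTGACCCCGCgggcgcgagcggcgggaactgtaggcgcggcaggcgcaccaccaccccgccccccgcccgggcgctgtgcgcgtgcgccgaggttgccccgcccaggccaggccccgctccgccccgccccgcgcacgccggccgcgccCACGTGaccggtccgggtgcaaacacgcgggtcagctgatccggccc
LAMP1: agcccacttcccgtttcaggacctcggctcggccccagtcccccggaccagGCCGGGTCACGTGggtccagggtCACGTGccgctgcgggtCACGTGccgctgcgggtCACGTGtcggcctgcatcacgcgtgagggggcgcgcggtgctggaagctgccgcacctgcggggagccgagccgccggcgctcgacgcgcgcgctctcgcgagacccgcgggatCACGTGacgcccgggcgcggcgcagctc
Promoter windows were found for 35 of the 41 genes (6 with several start sites, any of which counted). LAMP2, CTSB, ATP6V1H, ATP6V1A, HEXA and MAP1LC3A were not matched. CACGTG was in 8 of the 35, or 22.9%, against 7.73% of 27303 genes with a window. Those 27303 are not limited to the genes tested on the arrays. CACGTG was in 6 of 10 lysosome genes (ATP6V0D1, CTSA, CTSD, LAMP1, MCOLN1 and NEU1) and in 2 of 22 autophagy genes (ATG3 and ATG14). TGACNNNGC was in 7 of the 35, or 20%, against 13.2% of all, and TGATGNAA in 0 against 3.89%. By list, TGACNNNGC was in 6 of 10 lysosome genes, or 60%, and in 1 of 22 autophagy genes, MAP1LC3B, or 4.55%. Of the 6 lysosome genes with CACGTG, 1 was called at each time, and their median log2 change at 24 hours was 0.15 against 0.12 in the 4 without it. Both autophagy genes with it were not called, and 5 of 19 without it were called at 24 hours. These counts are small, and 11% of all genes were called at 12 hours and 24.3% at 24 hours.

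NEU1, the sialidase that removes sialic acid from glycoproteins in the lysosome, stood at 8.46, 8.34 and 8.32 with ST045849 against 8.18, 8.22 and 7.76 with vehicle at 12 hours, and at 8.44, 8.49 and 8.72 against 7.84, 8.34 and 7.82 at 24 hours. Treated and vehicle arrays did not overlap at either time. The log2 difference was 0.32 ± 0.14 at 12 hours (limma adjusted p = 0.148) and 0.56 ± 0.14 at 24 hours, or 1.47-fold (limma adjusted p = 0.0062). It was 0.69 in the first set and 0.19 in the second, and with median scaling the 24 hour value was 0.34 (limma adjusted p = 0.148).

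CTSD, the aspartic protease cathepsin D, stood at 8.65, 8.82 and 8.67 against 8.34, 8.30 and 7.85 at 12 hours, and at 8.40, 8.35 and 8.54 against 8.06, 8.63 and 7.97 at 24 hours. The groups overlapped at 24 hours, where vehicle replicate 2 was the highest array. The rise at 12 hours was 0.55 ± 0.16, or 1.47-fold (limma adjusted p = 0.0261), and the 24 hour difference was 0.21 (95% interval -0.11 to 0.53). Within the sets the difference was 0.58 and 0.18.

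ATP6V1H, a regulatory subunit of the vacuolar proton pump that acidifies lysosomes, stood at 9.66, 9.67 and 9.58 against 8.60, 9.36 and 9.14 at 12 hours and at 9.32, 9.52 and 9.40 against 9.14, 9.06 and 8.91 at 24 hours. The treated arrays were higher in 6 of 6 same-numbered comparisons. The rise at 12 hours was 0.60 ± 0.17, or 1.52-fold (limma adjusted p = 0.0246), but without vehicle replicate 1, the lowest array, it was 0.38 (limma adjusted p = 0.133), and a second, dimmer probe gave 0.30 (limma adjusted p = 0.19 over all probes). Within the sets the difference was 0.37 in the first and 0.61 in the second. The other pump subunits of the list, ATP6V0D1 and ATP6V1A, differed by 0.12 and 0.18 at 12 hours and by 0.10 each at 24 hours, and were not called.

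**Figure D3:**
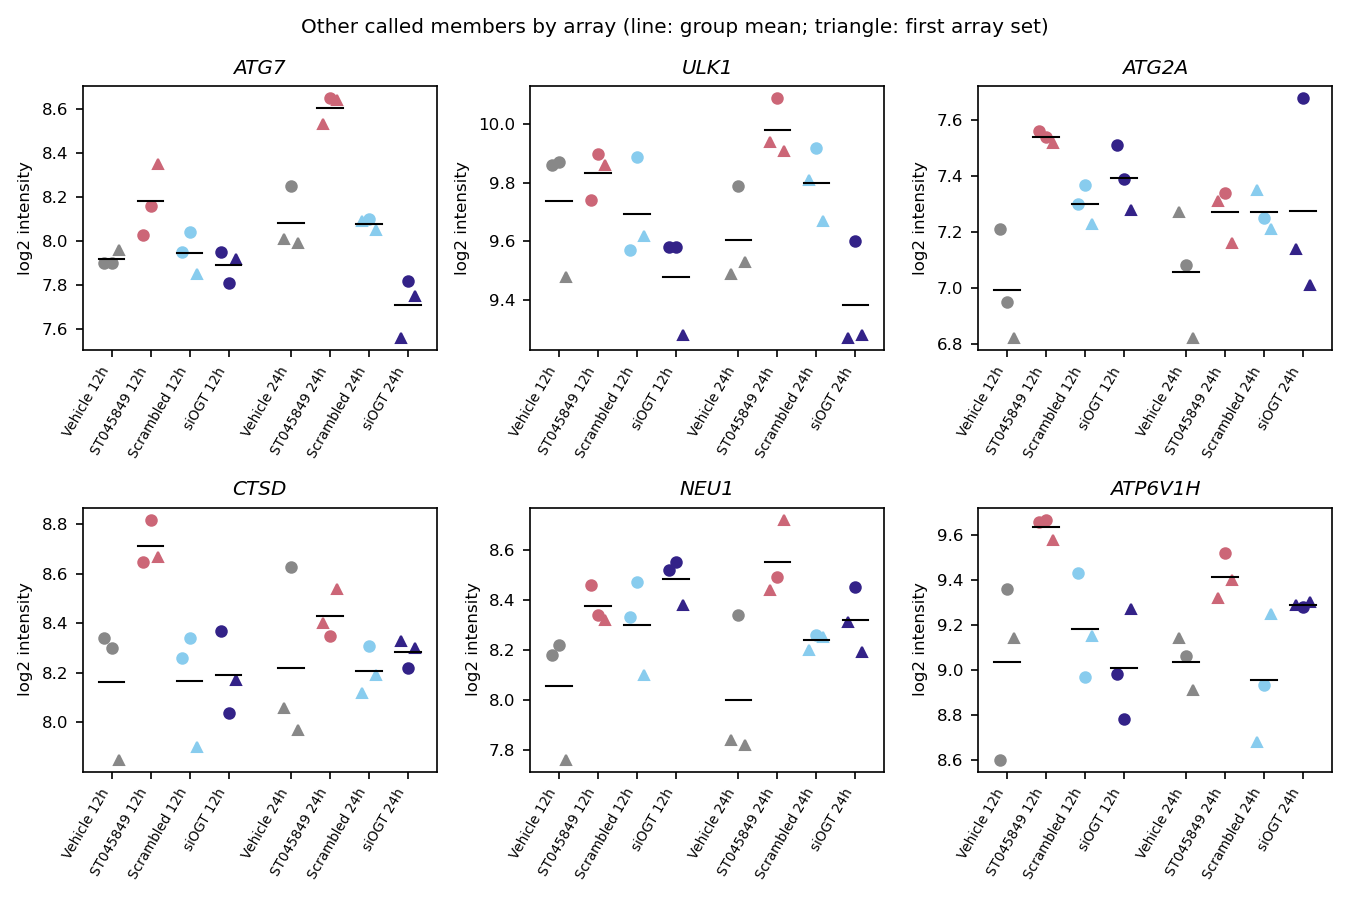
Normalized log2 intensity of the other 6 genes that rose with ST045849 at 12 or 24 hours, on each of the 24 arrays by group, with a line at the group mean and a triangle for arrays of the first set. ATG7 with ST045849 at 24 hours lies between 8.53 and 8.65, above every other group, while the ATG2A and CTSD arrays with ST045849 at 12 hours lie above those of vehicle.

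The 11 other lysosome genes did not pass the test. They were the membrane proteins LAMP1 and LAMP2, the calcium channel MCOLN1, the cathepsins CTSA, CTSB, CTSL and CTSZ, the glycosidases GLA and GUSB, and ATP6V0D1 and ATP6V1A. Their log2 differences ranged from -0.23 (GLA) to 0.27 (CTSZ) at 12 hours and from -0.21 (MCOLN1) to 0.23 (GUSB) at 24 hours. LAMP1 was 0.23 higher at 24 hours, without overlap (limma adjusted p = 0.0631). LAMP2 gave a different answer by probe: its brightest probe, which stands for the gene, differed by -0.03 at 24 hours, and another of its 6 probes by 0.48 (limma adjusted p = 0.00162 over all probes), with the remaining 4 at 0.11 to 0.28 and not called. GLA, which encodes alpha-galactosidase A, stood at a mean of 9.09 ± 0.08 (SD, n = 3) against 9.33 ± 0.01 with vehicle at 12 hours, lower on all 3 arrays (limma adjusted p = 0.0845).

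As a level per array, the median over the autophagy genes of the log2 intensity minus each gene's mean was 0.07 to 0.19 with ST045849 at 12 hours and 0.13 to 0.21 at 24 hours, and -0.16 to 0.03 in the other 6 groups. For the lysosome genes it was 0.01 to 0.12 and 0.06 to 0.12 with ST045849, and -0.16 to 0.08 in the others. On these quantile-normalized values the autophagy level thus stood apart from all other groups, by a narrow margin (0.07 against 0.03), and the lysosome level overlapped them. Levels were not computed with median scaling. There the median 24 hour change of the autophagy genes was 0.01, or 0.15 above that of all genes, against 0.20 and 0.17 here. The autophagy level minus the lysosome level was -0.05 to 0.18 and 0.07 to 0.10 with ST045849 at 12 and 24 hours, and -0.15 to 0.11 in the other 6 groups, so that it overlapped between treated and untreated arrays.

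Without overlap between the 3 treated and the 3 vehicle arrays were 15 of the 37 genes at 12 hours, or 40.5%, and 14 at 24 hours, or 37.8%, where 28.8% and 40.2% of all genes did not overlap. The inhibitor's effect at 24 hours was also compared with that at 12 hours. None of the 37 genes differed (0 called, 1 at an unadjusted p under 0.05), and limma called 0% of all genes. The difference was 0.44 for GABARAPL1 (95% interval 0.02 to 0.87), 0.27 for ATG7, -0.34 for ATG2A and -0.34 for CTSD. Each labelled time holds arrays of both sets but in unequal numbers, so time and set are partly mixed in this comparison, which does not adjust for set. All times are those of the labels, and whether any labels were exchanged was not tested.

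The genes were next compared between the OGT siRNA and its control. Against the scrambled siRNA, limma called 0 of the 37 genes at 12 hours and 0 at 24 hours, where 0.00967% and 0.126% of all genes were called. At an unadjusted p under 0.05 there were 2 and 4. The arrays of 3 and 10 of the 37 genes did not overlap, against 8.75% and 16.7% of all genes. The median log2 change was 0.01 and -0.02, and 35 and 29 of the 37 genes had a 95% interval inside a 1.5-fold change. For GABARAPL1 the siOGT arrays stood at 8.63, 8.38 and 8.16 at 12 hours and 8.07, 8.42 and 8.07 at 24 hours, and the scrambled arrays at 8.29, 8.59 and 8.25 and at 8.47, 8.60 and 8.14. MAP1LC3B stood at 7.44, 7.92 and 7.44 with siOGT at 24 hours against 7.43, 7.63 and 7.48. Both overlapped their control at both times.

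At 24 hours the 10 genes without overlap lay on either side of their control, and none passed the test. The 3 with the lowest siOGT values relative to scrambled were CTSL, ULK1 and ATG7. ATG7 stood at 7.56, 7.82 and 7.75 against 8.09, 8.10 and 8.05, a difference of -0.37 ± 0.10 (limma adjusted p = 0.137). ULK1 stood at 9.27, 9.60 and 9.28 against 9.81, 9.92 and 9.67, a difference of -0.42 ± 0.13 (limma adjusted p = 0.185), and its second probe gave -0.46. CTSL, the cysteine protease cathepsin L, stood at 10.42, 10.96 and 10.41 against 10.98, 11.35 and 11.04, a difference of -0.53 ± 0.17 (limma adjusted p = 0.196), with -0.42 and -0.49 by its other probes. In all 3 the siOGT arrays lay below every scrambled array, as they did for GABARAP, WIPI1, LAMP1 and GLA (-0.33 to -0.13). They lay above every scrambled array for BECN1 (0.19, limma adjusted p = 0.501), ATG14 (0.18, 0.493) and ATP6V1H (0.33, 0.422). At 12 hours ATG5, part of the conjugation machinery, stood at 6.23, 6.58 and 6.94 with siOGT against 6.10, 6.09 and 6.03, a difference of 0.52 (limma adjusted p = 1.0).

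The difference between the 2 effects was tested itself. At 24 hours the ST045849 change exceeded the siOGT change in 7 of the 37 genes and fell short in 0, which is 18.9%, where 16.1% of all genes were called, 9.65% upward and 6.42% downward. They were GABARAPL1 (a difference of 1.22 ± 0.21 on the log2 scale, limma adjusted p = 0.000794), SQSTM1 (0.91 ± 0.27, 0.0246), ATG7 (0.89 ± 0.13, 0.000337), ULK1 (0.80 ± 0.18, 0.0067), MAP1LC3A (0.79 ± 0.21, 0.014), MAP1LC3B (0.77 ± 0.22, 0.0213) and CTSL (0.74 ± 0.24, 0.0417). The siOGT change itself was below 0 in 6 of the 7, from -0.08 for MAP1LC3A to -0.53 for CTSL, and 0.09 in MAP1LC3B. CTSL was called with neither treatment alone, and its ST045849 change was 0.21 (95% interval -0.14 to 0.57, limma adjusted p = 0.393). NEU1, which rose with the inhibitor, differed by 0.47 (95% interval 0.07 to 0.88, limma adjusted p = 0.102) and was not called. At 12 hours limma called 0 of 37 (9 at an unadjusted p under 0.05), where 2% of all genes were called. With median scaling GABARAPL1 alone was called at 24 hours, at 0.86 (limma adjusted p = 0.0176), and the count was 4 without scrambled replicate 2 or without siOGT replicate 1 or 3 of 24 hours.

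**Figure D4:**
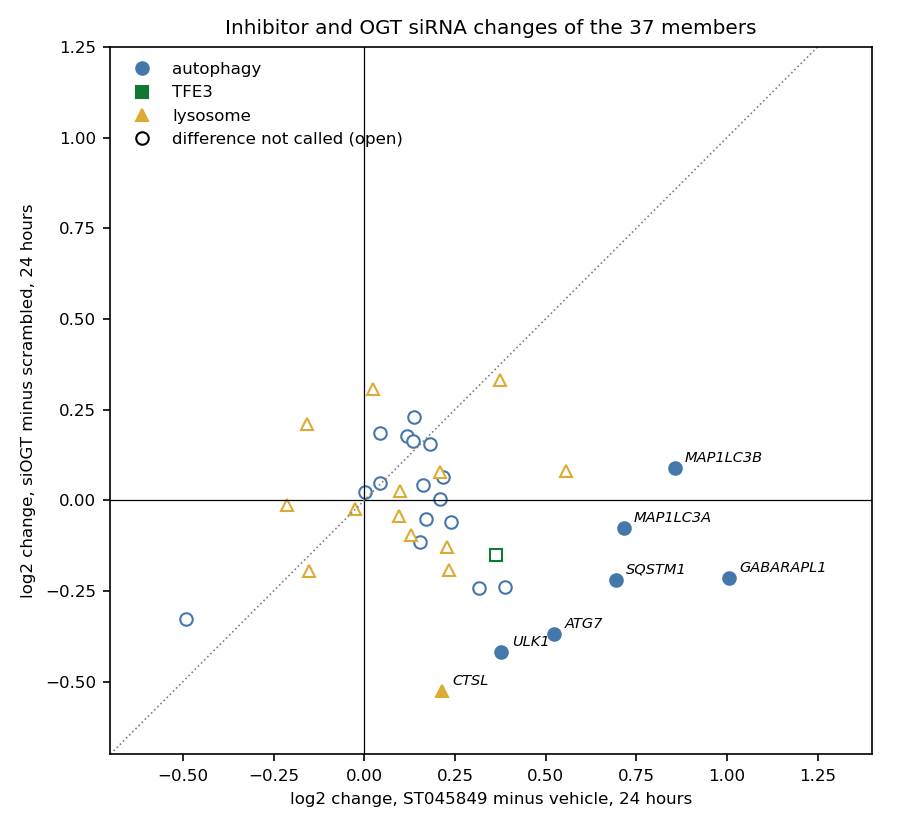
Log2 change at 24 hours with ST045849 against vehicle (horizontal) and with siOGT against scrambled siRNA (vertical) for the 37 genes, with the line of equal change dotted. The 7 filled and named genes, whose inhibitor change differed from the siRNA change, lie below the line. Among them 1 is a lysosome gene, CTSL, which was called with neither treatment alone.

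The scrambled siRNA itself was compared with vehicle. Limma called 0 of the 37 genes at 12 hours and 0 at 24 hours, where 0% and 0.087% of all genes were called (3 and 3 at an unadjusted p under 0.05). The arrays of 3 and 6 of the 37 did not overlap, against 9.04% and 17% of all genes. WIPI1, which binds the early autophagosome membrane, stood lower in the siRNA-treated cells: it stood at 5.20, 5.19 and 5.27 with scrambled siRNA at 12 hours against 5.69, 5.84 and 5.81 with vehicle, and at 5.29, 5.22 and 5.25 against 5.37, 5.73 and 5.83 at 24 hours. The groups did not overlap, but neither difference passed the test (-0.56, limma adjusted p = 0.869, and -0.39, limma adjusted p = 0.245). The probe was detected on 13 of 24 arrays, and on 0 of the 6 scrambled and siOGT arrays of 24 hours, so that its level there is not well above background.

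Other genes of the same pathways were taken from 5 lists made by function, also chosen with earlier results of these data known. Of 14 other autophagy receptors tested (of 17 listed), 6 rose and 0 fell with ST045849 at 24 hours, which is 42.9%, where 24.3% of all genes were called and 13.6% upward, with a median log2 change of 0.30. CCPG1, a receptor for turnover of the endoplasmic reticulum, rose by 1.31 ± 0.16, or 2.48-fold (limma adjusted p = 1.01e-05). TAX1BP1 (0.36, 0.00669), RTN3 (0.45, 0.00747) and the mitochondrial receptor BNIP3L (0.41, 0.00989) followed by p. At 12 hours 4 of the 14 rose, or 28.6% against 11% of all genes, and CCPG1 by 1.06 (limma adjusted p = 0.000178). CCPG1, like GABARAPL1, was above all vehicle arrays at both times.

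Of 25 other autophagy genes (of 29), 5 rose and 1 fell at 24 hours, which is 24%, close to the 24.3% of all genes, with a median of 0.00. WDR45, a WIPI-family protein, rose by 0.83 ± 0.12 (limma adjusted p = 8.85e-05), RB1CC1, the scaffold of the ULK complex, by 0.44 (0.00184) and VPS41 of the tethering complex for lysosomal fusion by 0.37 (0.0175). TP53INP2, which draws ATG8 proteins out of the nucleus, fell by 0.59 (limma adjusted p = 0.00263). At 12 hours 4 rose and 1 fell, which is 20% against 11% of all genes.

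Of 39 other lysosome genes (of 50), 11 rose and 1 fell at 24 hours, which is 30.8% against 24.3% of all genes, with a median of 0.17. At 12 hours 4 rose and 1 fell, which is 12.8%, near the 11% of all genes. CLCN7, the chloride-proton exchanger of the lysosomal membrane, rose by 0.65 ± 0.11, or 1.57-fold (limma adjusted p = 0.000309), the mannosidase MANBA by 0.69 (0.00383), the sulfatase IDS by 0.47 (0.00715) and cathepsin CTSF by 0.59 (0.00865). Of 14 other vacuolar ATPase genes (of 15), 1 rose at 24 hours, ATP6V0A1 by 0.43 (limma adjusted p = 0.00898), and 0 at 12 hours. These shares, 7.14% and 0%, are below the 24.3% and 11% of all genes.

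Of 15 genes of nutrient sensing at the lysosome (of 16), 2 rose and 1 fell at 24 hours, which is 20% against 24.3% of all genes, with a median of 0.17. The Rag GTPases bring mTORC1 to the lysosome: RRAGD rose by 0.64 ± 0.10 (limma adjusted p = 0.000172), after 0.47 at 12 hours (0.00612), and RRAGC by 0.32 (0.0477). FNIP2, which acts on the Rag GTPases together with folliculin, fell by 0.97 (limma adjusted p = 0.00332) and was detected on 1 of 3 treated arrays. These counts moved with the scaling: with median scaling, which called 18.4% of all genes, 1 receptor rose and 1 fell, 1 other autophagy gene rose and 2 fell, 2 other lysosome genes rose and 1 fell, and the nutrient sensing list held 1 of each. With siOGT limma called 0 genes of these 5 lists at either time, and 0 to 2 of each passed at an unadjusted p under 0.05. The ST045849 change exceeded that of siOGT at 24 hours by 1.24 for CCPG1 (limma adjusted p = 0.00137), 1.01 for WDR45 (0.000991), 0.88 for CLCN7 (0.00125) and 0.60 for RRAGD (0.00943).

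**Figure D5:**
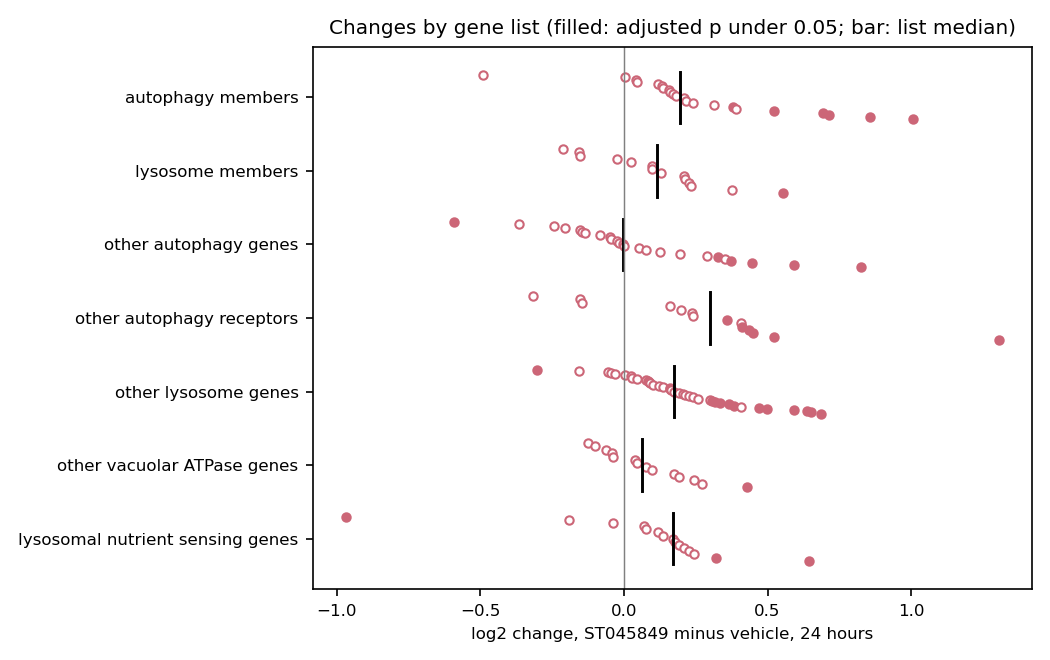
Log2 change with ST045849 against vehicle at 24 hours of every tested gene of the 2 member lists and the 5 lists of other pathway genes, with filled points for an adjusted p under 0.05 and a bar at the list median. The medians run from 0.00 (other autophagy genes) to 0.30 (other autophagy receptors), against 0.03 over all genes.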

How the data were processed

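Biotin-labelled total RNA of LNCaP cells was hybridised to Illumina bead arrays, per the labels' protocols. Per the file headers, a deposited table gave each probe's raw intensity, on a linear scale, and its detection p-value, and another gave the authors' processed intensity of the same 24 arrays, whose medians of 116.36 to 116.39 were alike. The submitters' processing notes name GenomeStudio 2011.1 without its role. Slides and dose are not given in these sources. The submitters called the 3 arrays of a group biological replicates. Nothing else says how the cultures were separated, so p-values measure the spread between these samples, which may be technical.

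The raw intensities (array medians 101.53 to 126.48) were background-corrected by normexp from the detection p-values with an offset of 16, quantile normalized and taken to log2 with the neqc function of the R package limma (limma 3.58.1, R 4.3.3, with version 1.17.8 of data.table). The offset shrinks the changes of dim probes. Of 47323 probes, 17633 passed the filter. Names came from the platform annotation (30113 probes with 1 symbol, 8 with several, 17202 unnamed), and the brightest probe stood for a gene. Levels are not compared between genes, since probes differ in brightness. No array pairs held the same values (0 pairs), and within-group correlations were 0.987 to 0.993.

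A single limma fit of 8 group means gave all contrasts, with Benjamini-Hochberg adjustment over 10345 genes per contrast and a threshold of 0.05. Of the members, those called in a treatment comparison and the ATG8 family are given by array, and the rest by range. From the other lists the 4 genes of smallest p called with ST045849 at 24 hours are named, and others named were chosen after their values were seen. The array sets were split at the widest gap between vehicle arrays on principal component 1 (34.199% of the variance). Same-numbered arrays of different groups had residual correlations of -0.07 to 0.356 (median 0.076), with 12 of 36 over 0.1. Members, lists and tests were chosen with earlier results of these data known. Promoter windows are those of RefSeq, and motifs were searched on both strands.

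The alternatives were median scaling, omitted background correction, the processed values of the authors, different detection filters, each probe alone, replicate blocks, array sets, the compared groups alone, array weights and leaving out each array.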

Additional observations from a re-analysis of the deposited data

How the results depend on the processing

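At 24 hours with ST045849, MAP1LC3A, MAP1LC3B and GABARAPL1 kept their call in 13 of 13 alternatives and in 6 of 6 fits without an array, and SQSTM1 in 13 and 5, ATG7 and NEU1 in 12 and 6, and ULK1 in 10 and 1. At 12 hours calls were kept in 10 to 12 alternatives and in 1 to 4 fits without an array. These alternatives are not separate checks. The authors' processed values gave the same median changes as omitting background correction, and the other detection filters use the same normalized values. The count at 12 hours, 6, was 0 with median scaling, 10 (9 higher, GLA lower) with array sets given their own effect in each treatment and 2 with only the compared groups. It was 0 to 6 without an array, 0 without vehicle or ST045849 replicate 3 and 2 without ST045849 replicate 2. The count at 24 hours, 7, was 11 (10 higher, GABARAP lower) with array weights, 5 (4 higher, GABARAP lower) with median scaling and 5 to 9 without an array. For the ST045849 effect minus the siOGT effect, the 24 hour count of 7 was 1 with median scaling and 4 to 9 without an array, and the 12 hour count of 0 was 1 without background correction, 1 with the authors' processed values, 4 with array sets given their own effect and 0 to 1 without an array. Median scaling moved the median of all genes to -0.14 with ST045849 and 0.11 with siOGT at 24 hours, and relative to it the members' median was 0.14 and -0.01. The changes of the 10 members that rose with ST045849 kept their sign in every alternative run at the time of the call. GABARAPL2, not called, went from 0.05 to -0.015 at 12 hours and from 0.16 to -0.032 at 24 hours with median scaling. By other probes of the same gene, signs differed at 24 hours with ST045849 for LAMP2 (-0.03 and 0.48) and CTSB (0.13 and -0.26). They also differed for ATG12 (0.155 and -0.073) and ATG3 (0.002 and -0.274). With median scaling the other autophagy genes called at 24 hours went from 5 higher and 1 lower to 1 higher and 2 lower. With the replicate number as a block the counts were 8 at 12 hours (SQSTM1 and ATG4A added), 7 at 24 hours and 8 for the 24 hour difference. For 22 of 24 arrays the mean residual correlation was higher with arrays of their own number than with those of other numbers. This is a hint from the data and not the design. The causes of these moves were not tested. WIPI1, NBR1 and ULK2 lie near background on some arrays, where small changes cannot be seen.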
